A study of Mus musculus with 12 samples.

Results

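The 3 D-type cyclins (Ccnd1, Ccnd2, Ccnd3), their kinase partners Cdk4 and Cdk6, the INK4 inhibitors Cdkn2a, Cdkn2c and Cdkn2d, the CIP/KIP inhibitor Cdkn1b and the kinase substrate Rb1 were followed across normal thymocytes, Dnmt1-deleted thymocytes and NPM-ALK lymphomas. These 10 genes were chosen by name, with earlier results of these data known, from 50600 gene IDs counted in each library. All 10 were among the 16052 genes that passed a filter on low counts. The minimum of that filter, 10 reads in a library of median size (0.655 CPM, reads scaled to a common library size), was reached in all 12 libraries by 9 of the 10 genes and in 10 libraries by Cdkn2a.

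D-type cyclins are made when a cell receives growth signals and activate Cdk4 and Cdk6, which phosphorylate the retinoblastoma protein, the product of Rb1. Unphosphorylated Rb holds E2F transcription factors in check, so its phosphorylation lets the genes of DNA synthesis be transcribed and the cell pass from G1 into S phase. INK4 proteins bind Cdk4 and Cdk6 and keep the cyclin away, whereas p27, the product of Cdkn1b, binds assembled cyclin and kinase complexes. In the thymus, cyclin D3 is known for its role in the expansion of immature thymocytes.

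Strand-specific poly(A) RNA was sequenced from 12 mice of a mixed C57Bl/6xSV/129 background, 3 in each of 4 groups, and all were male except KO mouse 2. Ctrl mice carried DNMT1 fl/fl alleles without Cre and gave thymocytes at 20 to 25 wk of age. KO mice were DNMT1 fl/fl CD4-CRE and gave thymocytes at 20 to 21 wk. ALK mice carried NPM-ALK, a human fusion kinase driven by the Cd4 enhancer and promoter, and gave T-cell lymphoma cells at 22 to 31 wk, while ALKKO mice carried NPM-ALK together with DNMT1 fl/fl CD4-CRE and gave thymocytes at 19 to 25 wk. Every ALK sample was thus a tumor and every other sample a thymus, so that transformation, tissue of origin and the transgene cannot be told apart in a comparison of ALK with Ctrl. Cd4-driven Cre acts in cells that have switched on Cd4, so other cells of the tissue keep their Dnmt1 alleles.

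Gene counts summed to 12473857 reads in the shallowest library and 18864327 in the deepest. Dnmt1 was at 400 to 487 CPM (TMM-normalized, as are all levels that follow) in Ctrl, 206 to 243 in KO, 378 to 787 in ALK and 205 to 244 in ALKKO, and Alk was at 34.8 to 54.9 CPM in the 6 transgenic mice and at most 0.431 in the other 6. Of 10 T-lineage markers, 9 had reads in each library and Rag1 was listed at 0 in all 12. Whether Rag1 was silent or its reads were left out of the count was not tested, so its level cannot be read here. Their summed level was 9661 to 11870 CPM in Ctrl and 3463 to 4119 in ALK, where Cd4 and Cd8b1 were at most 116 and 28.7 CPM against at least 1286 and 1345 in Ctrl. Cd3e, a chain of the T-cell receptor complex, was at 308 to 398 CPM in the lymphomas and 416 to 587 in Ctrl. The chains Cd3d and Cd3g of the same complex were lower by more. Cd3d was at 2.264 to 211.9 CPM in the lymphomas against 391.6 to 467.8 in Ctrl, and Cd3g at 34.66 to 264.7 against 505.7 to 568.4. Ptcra, the pre-T-cell receptor chain, went the other way in 2 of 3 tumors, at 424, 142 and 32.5 CPM in ALK mice 1, 2 and 3 against 46.3 to 49.0 in Ctrl (log2 fold change 2.07, edgeR adjusted p = 0.0595). The summed level of 5 fibroblast markers was higher in the lymphomas (909 to 2371 against 187 to 330 CPM in Ctrl) through the 3 collagen genes Col1a1, Col1a2 and Col3a1, whereas Dcn was at 22.9 to 45.6 CPM against 83.1 to 134 in Ctrl (log2 fold change -1.62, edgeR adjusted p = 0.1001) and Pdgfra overlapped (3.92 to 15.8 against 4.87 to 10.7 CPM). The lymphomas held less RNA of thymic epithelial markers (3.62 to 155 against 561 to 660 CPM, 5 genes) and B-cell markers (2.0 to 7.88 against 41.1 to 69.9 CPM, 4 genes). In bulk samples, fewer cells of a type and less RNA per cell cannot be told apart, and the part of these cells in the results was not tested. A pair of KO libraries stood apart: KO mouse 2 had 1528 CPM of B-cell markers against 34.3 to 70.2 in the other thymi, with 4217 CPM of T-lineage markers, and KO mouse 3 had 4815 CPM of 4 heart muscle genes against at most 20.0 elsewhere.

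**Figure D1:**
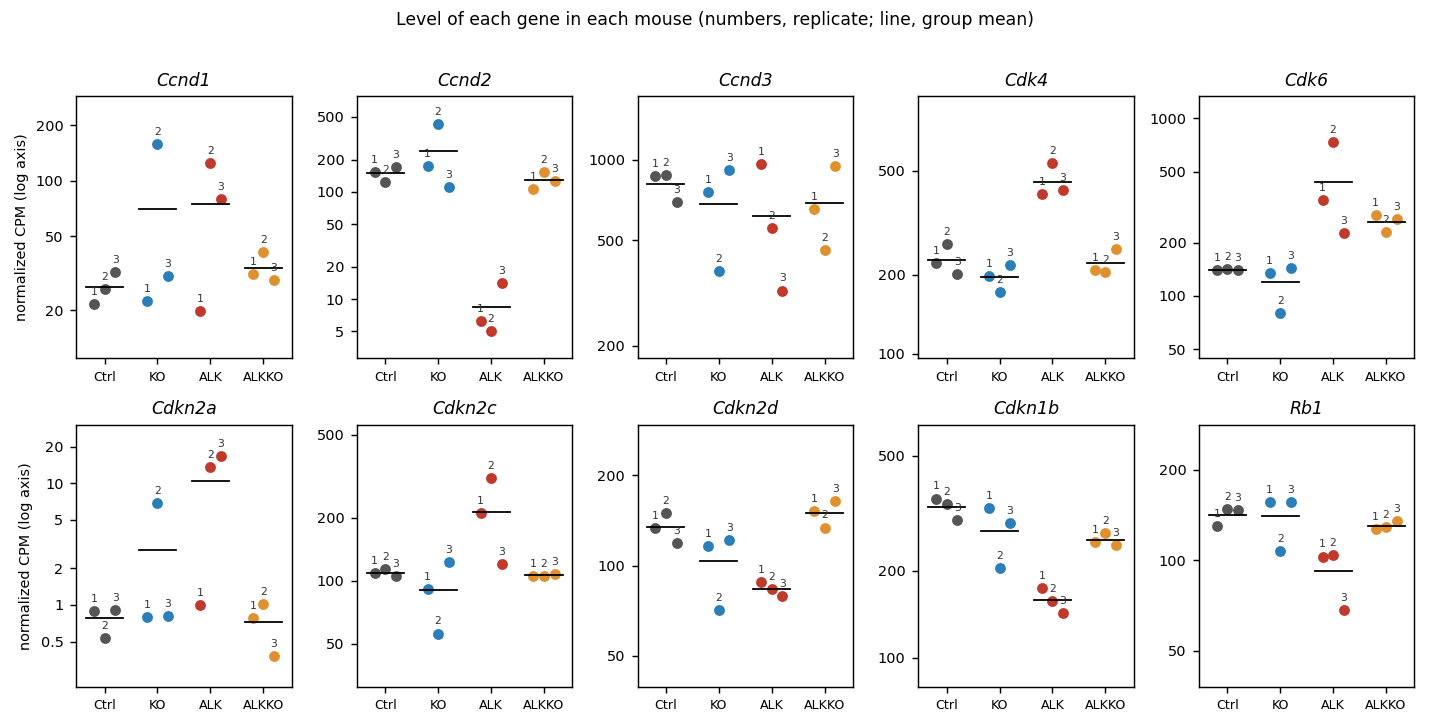
Normalized level of the 10 genes (CPM on a log axis) in each of the 12 mice, by group, with the replicate number above each point and the group mean as a line. The 3 ALK mice lie below all other mice for Ccnd2 (5.05 to 14.2 CPM) and above all other mice for Cdk4 (406 to 534 CPM), while KO mouse 2 lies apart from the other KO mice for Ccnd1, Ccnd2 and Cdkn2a.

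In ALK against Ctrl, 8 of the 10 genes had an adjusted p under 0.05 in edgeR's quasi-likelihood test, 4 higher and 4 lower, where 29.5% of all genes tested did (14.8% higher, 14.7% lower). With a change of over 2-fold asked for as well, 4 were called (Cdk6 and Cdkn2a higher, Ccnd2 and Cdkn1b lower), where 20.4% of all genes were (8.41% higher, 12% lower). The ranges of the 3 ALK and 3 Ctrl mice did not overlap for those 8 genes, as for 46.3% of all genes, and an exact permutation test of such a gene gave p = 0.1, the smallest possible with 3 mice against 3. The median log2 fold change of the 10 genes was 0.28, beside 0.05 over all genes tested, and spanned -4.12 to 3.73. Below, a gene is said to have risen or fallen where its adjusted p over all genes was under 0.05.

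**Figure D2:**
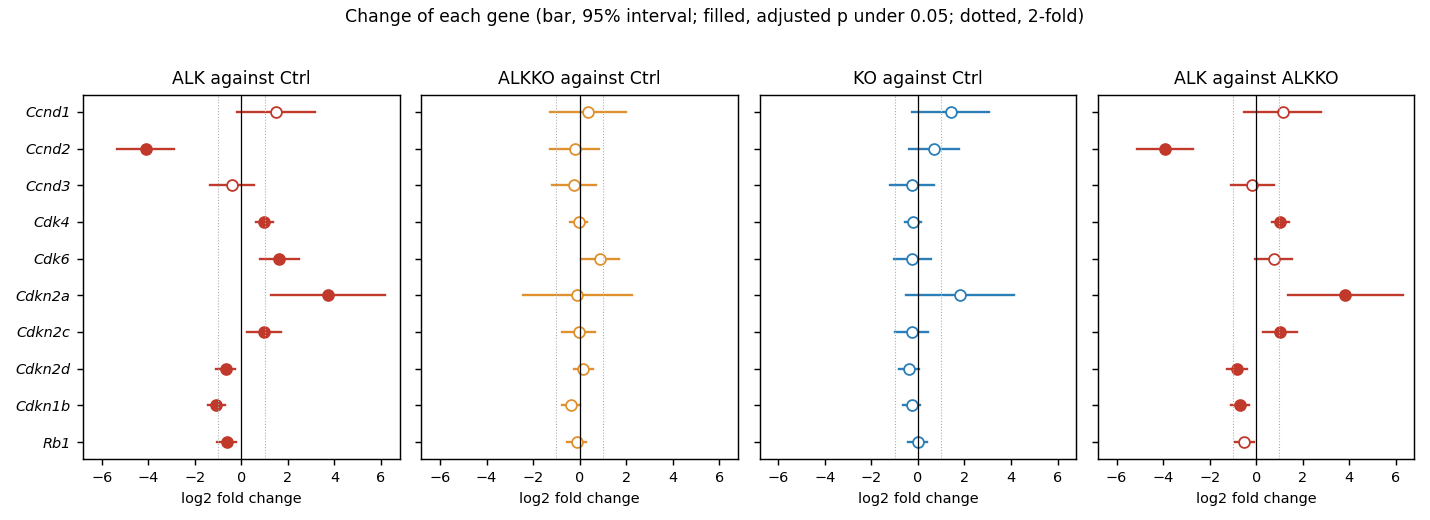
Log2 fold change of each gene with its 95% interval in 4 comparisons, where a filled point marks an adjusted p under 0.05 and dotted lines mark 2-fold. In ALK against Ctrl 8 of 10 points are filled, in ALK against ALKKO 6, and in ALKKO or KO against Ctrl 0.

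Among the D-type cyclins, Ccnd2 fell in the lymphomas, whereas Ccnd1 and Ccnd3 varied between tumors. Ccnd2 (chr6:127125162-127152193, minus strand, GRCm38), a cyclin induced by cytokine and antigen receptor signals in lymphocytes, was at 152, 124 and 169 CPM in the 3 Ctrl mice and at 6.31, 5.05 and 14.2 CPM in the 3 ALK mice. No ALK mouse came near a mouse of any other group, the lowest of which had 107 CPM. The fall was 17.4-fold (log2 fold change -4.12, SE 0.54, edgeR adjusted p = 0.000859), and it stayed past the threshold under all 20 alternatives tried, with log2 fold changes of -4.71 to -3.88.

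Ccnd1 (chr7:144929931-144939925, minus strand), the cyclin best known from solid tumors, was at 21.6, 26.1 and 32.3 CPM in Ctrl and at 19.7, 125 and 79.5 CPM in ALK. ALK mouse 1 lay below all 3 Ctrl mice and the other 2 tumors well above them. The log2 fold change was 1.49 (SE 0.75, 95% interval -0.18 to 3.15) and did not pass the test (edgeR adjusted p = 0.157). Of its exonic bases, 1100 are shared with LTO1 on the opposite strand, and the strand setting of the counting is not given in the sources used here. Reads in the shared bases may thus have been ambiguous, and ambiguous reads were counted for no gene. The same holds for Ccnd2, with at least 368 bases shared with each of 9330179D12Rik and Gm43126, for Ccnd3, with 361 shared with Bysl, and for Cdk6, with 368 shared with Gm17590.

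Ccnd3 (chr17:47505051-47599691, plus strand), the cyclin of proliferating thymocytes, was at 871, 875 and 698 CPM in Ctrl and at 964, 553 and 323 CPM in ALK. The tumor with the least Ccnd1 had the most Ccnd3, and the other 2 tumors lay below every Ctrl mouse. The log2 fold change of -0.41 (SE 0.42, 95% interval -1.35 to 0.53) did not pass the test (edgeR adjusted p = 0.492). Over all 12 libraries, log2 levels of Ccnd1 and Ccnd3 had a Pearson r of -0.81, a description that rests on libraries differing in group and cell makeup.

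Per kilobase of exon, Ccnd3 was the main D-type cyclin transcript of the normal thymus, at 81.0% ± 4.24 (SD, n = 3) of the summed CPM per kb of the 3 cyclins in Ctrl, with 13.9% ± 3.06 from Ccnd2 and 5.02% ± 1.403 from Ccnd1. In the lymphomas the share of Ccnd2 was 0.585%, 0.596% and 2.74%, below the 11.2% to 17.2% of Ctrl in every tumor. The share of Ccnd1 was 3.65% in ALK mouse 1 but 29.5% and 30.6% in ALK mice 2 and 3, against 3.82% to 6.57% in Ctrl. The sum itself was 115, 90.1 and 55.2 CPM per kb in ALK and 104 to 120 in Ctrl, so that 2 of 3 tumors lay below all Ctrl mice. In ALKKO thymocytes, 10.4% to 21.0% came from Ccnd2 and 67.6% to 84.8% from Ccnd3, ranges that overlapped those of Ctrl.

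**Figure D3:**
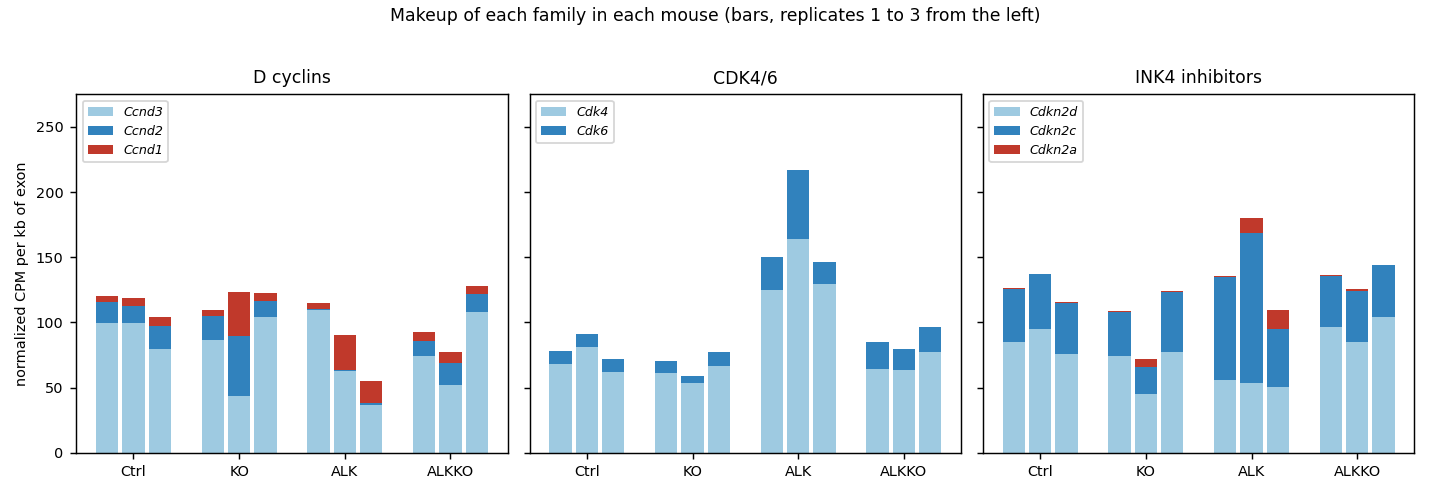
Stacked levels (normalized CPM per kb of exon) of the 3 D-type cyclins, of Cdk4 and Cdk6, and of the 3 INK4 inhibitors in each mouse, replicates 1 to 3 from left to right in each group. The Ccnd2 segment is at most 1.51 CPM per kb in the ALK mice against at least 11.4 in all other mice, and the summed kinase level of 146 to 217 in ALK lies above the 58.9 to 96.8 of the other groups.

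Both kinase genes rose in the lymphomas. Cdk4 (chr10:127063534-127067920, plus strand) was at 221, 263 and 202 CPM in Ctrl and at 406, 534 and 422 CPM in ALK. The 3 tumors lay above all 9 thymi, whose highest level was 263 CPM. The rise was 1.99-fold (log2 fold change 0.99, SE 0.16, edgeR adjusted p = 0.00209), just short of the 2-fold line, and it crossed that line without Ctrl mouse 2 (log2 fold change 1.08), without ALK mouse 1 (1.07), without ALK mouse 3 (1.03) and with age as a covariate (1.07). Of the exonic bases of Cdk4, 641 are shared with Tspan31 on the opposite strand.

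Cdk6 (chr5:3341485-3531008, plus strand), the partner kinase that T-lineage cells also use, was at 140, 141 and 141 CPM in Ctrl and at 347, 740 and 226 CPM in ALK. All tumors were above Ctrl, and they differed among themselves by more than 3-fold. The rise was 3.11-fold (log2 fold change 1.64, SE 0.37, edgeR adjusted p = 0.00975), and log2 fold changes under the 20 alternatives ran from 1.01 to 1.94, all past the threshold. Per kilobase, Cdk4 exceeded Cdk6 in every library, with a ratio of 7.0 ± 0.94 (SD, n = 3) in Ctrl, 5.39 ± 2.48 in ALK and 3.68 ± 0.45 in ALKKO. The sum of both was 150, 217 and 146 CPM per kb in ALK against 72.2 to 91.0 in Ctrl.

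RefSeq promoter windows (250 bases before to 50 after a start site, GRCm38.p6) matched 7 of the 10 genes, in 10 windows, and none was matched for Ccnd1, Ccnd2 and Rb1. They were searched for the E-box CACGTG, which reads the same on both strands and is known as a site bound by MYC, for E2F-type sites (TTTGGCGC, TTTCCCGC and TTTCGCGC, both strands), for GTGGGAA, the core read by the Notch partner RBPJ, on both strands, and for the STAT palindrome TTCNNNGAA. No 2 of the matches found overlapped. The Cdk4 window (chr10:127063285-127063584, plus strand) held 4 E-boxes, at -172, -118, -98 and -11 from the start site, and the Cdk6 window (chr5:3343643-3343942, plus strand) held 1, at -220. One E-box or more was found in 7.15% of 32817 windows of this length, and 4 or more in 0.0244%. The 2 kinase windows are shown because both genes rose together, and the upstream window of Cdkn2a (chr4:89294570-89294869, minus strand), the start region of the Arf transcript, because it held 1 match to TTTCCCGC, present in 1.07% of windows. Capitals mark the matches, and each sequence runs 5′ to 3′ on the strand of its gene.
Cdk4: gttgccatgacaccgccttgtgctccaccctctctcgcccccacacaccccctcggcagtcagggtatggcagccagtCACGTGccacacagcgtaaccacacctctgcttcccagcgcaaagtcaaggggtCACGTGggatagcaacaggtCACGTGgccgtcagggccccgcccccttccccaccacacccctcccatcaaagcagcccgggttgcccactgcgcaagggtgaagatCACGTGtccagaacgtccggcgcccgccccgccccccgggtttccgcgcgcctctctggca
Cdk6: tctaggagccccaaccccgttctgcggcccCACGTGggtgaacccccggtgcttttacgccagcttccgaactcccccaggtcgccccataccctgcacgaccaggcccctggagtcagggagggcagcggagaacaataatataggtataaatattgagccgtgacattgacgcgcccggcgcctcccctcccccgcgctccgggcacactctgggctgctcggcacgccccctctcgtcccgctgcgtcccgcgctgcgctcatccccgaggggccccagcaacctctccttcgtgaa
Cdkn2a, upstream window: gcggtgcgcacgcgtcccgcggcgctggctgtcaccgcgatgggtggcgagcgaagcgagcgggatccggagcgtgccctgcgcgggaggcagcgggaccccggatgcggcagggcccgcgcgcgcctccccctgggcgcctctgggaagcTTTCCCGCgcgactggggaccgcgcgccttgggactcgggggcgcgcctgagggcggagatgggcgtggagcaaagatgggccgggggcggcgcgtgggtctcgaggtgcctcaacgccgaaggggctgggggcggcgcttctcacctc
Of the other windows, the second one of Cdkn2c held 1 E-box, and the Ccnd3, Cdkn1b and Cdkn2d windows, the downstream Cdkn2a window and the first Cdkn2c window held no match. A match is a description of the letters and not of a bound site. Myc, the E-box factor named by the study, was at 69.7 to 77.3 CPM in the Ctrl mice and at 216 to 276 in ALK (log2 fold change 1.72, SE 0.21, edgeR adjusted p = 0.000553), and in ALKKO it was at 55.5 to 94.1 CPM. Notch1 also rose in ALK, with 1082 to 4081 CPM against 218 to 233 CPM in Ctrl (log2 fold change 3.41, SE 0.41, edgeR adjusted p = 0.000553).

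The INK4 inhibitors did not move together: Cdkn2a and Cdkn2c rose in the lymphomas and Cdkn2d fell. Cdkn2a (chr4:89274471-89294653, minus strand) encodes p16INK4a and, from another first exon, the p53 regulator p19ARF, and a count per gene adds both transcripts. It was at 0.897, 0.536 and 0.915 CPM in Ctrl, from 17, 10 and 17 reads, and at 1.01, 13.6 and 16.8 CPM in ALK, from 15, 156 and 215 reads. ALK mouse 1 was thus at the level of Ctrl, with a read count inside the Ctrl range, and the rise rested on the other 2 tumors, the same 2 in which Ccnd1 was high. The log2 fold change was 3.73 (SE 1.11, edgeR adjusted p = 0.0294). The call was lost without Ctrl mouse 1, 2 or 3 (adjusted p 0.0897, 0.101 and 0.0846), without ALK mouse 2 or 3 (0.0662 and 0.0608), and with age as a covariate (0.0639), over a range of 0.00129 to 0.101 for all 19 alternatives.

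Cdkn2c (chr4:109660876-109667189, minus strand), which encodes p18INK4c, was at 109, 113 and 106 CPM in Ctrl and at 211, 311 and 121 CPM in ALK. All 3 tumors were above Ctrl, ALK mouse 3 by little. The rise was 1.96-fold (log2 fold change 0.97, SE 0.33, edgeR adjusted p = 0.0463), and 14 of 20 alternatives took the adjusted p above 0.05. These included leaving out Ctrl mouse 1, 2 or 3 (0.128, 0.112 and 0.117), KO mouse 1 (0.0655), ALK mouse 1 or 2 (0.0686 and 0.192) or any 1 ALKKO mouse (0.0683 to 0.0723), in a range of 0.00922 to 0.192.

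Cdkn2d (chr9:21288410-21291407, minus strand), which encodes p19INK4d, was at 134, 149 and 119 CPM in Ctrl and at 88.2, 83.7 and 79.1 CPM in ALK. The tumors were close to each other and below all Ctrl mice. The fall was 1.60-fold (log2 fold change -0.68, SE 0.19, edgeR adjusted p = 0.0233), and the adjusted p was above 0.05 without Ctrl mouse 1 or 2 (0.0598 and 0.0761), without ALK mouse 2 (0.0536) and with age as a covariate (0.0529), in a range from 0.00207. Per kilobase, Cdkn2d made up 67.2% ± 1.86 (SD, n = 3) of the 3 INK4 genes in Ctrl and 38.9% ± 8.49 in ALK, and Cdkn2c 32.2% ± 1.69 and 54.4% ± 11.96. The INK4 sum was 135, 180 and 110 CPM per kb in ALK against 116 to 138 in Ctrl, so the tumors lay within, above and below the range of Ctrl.

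Cdkn1b (chr6:134920401-134925513, plus strand) fell in the lymphomas. It was at 355, 341 and 299 CPM in Ctrl and at 174, 157 and 143 CPM in ALK, and all 3 tumors were below all 9 thymi, the lowest of which had 204 CPM. The fall was 2.10-fold (log2 fold change -1.07, SE 0.17, edgeR adjusted p = 0.00195), past the threshold under all 20 alternatives (-1.16 to -1.02). Set against the kinases it binds, Cdkn1b per kb was 0.911 ± 0.088 (SD, n = 3) times the sum of Cdk4 and Cdk6 in Ctrl and 0.209 ± 0.048 times in ALK. The ratio of the 3 INK4 genes to both kinases was 1.58 ± 0.06 in Ctrl and 0.828 ± 0.077 in ALK, and that of the D-type cyclins was 1.43 ± 0.12 and 0.519 ± 0.214. These are ratios of transcript levels per kb of exon, carry no test and depend on the gene lengths used.

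Rb1 (chr14:73183673-73325822, minus strand) was at 130, 148 and 147 CPM in Ctrl and at 103, 104 and 68.4 CPM in ALK. All tumors were below all Ctrl mice. The fall was 1.54-fold (log2 fold change -0.62, SE 0.19, edgeR adjusted p = 0.0304). The adjusted p was above 0.05 without Ctrl mouse 1, 2 or 3 (0.0549, 0.0819 and 0.0869), without ALK mouse 3 (0.0577), with age as a covariate (0.0800) and with only the groups compared (0.0719), in a range from 0.00614. Exons of Lpar6 and Rcbtb2 on the opposite strand cover 408 and 488 of its exonic bases.

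In ALKKO thymocytes, which carried NPM-ALK and had not formed a lymphoma, 0 of the 10 genes passed the test against Ctrl. Across all genes 0.181% were called in this comparison. Of the 10 genes, 2 had an unadjusted p under 0.05, as did 3.18% of all genes, and 0 were called with DESeq2's Wald test, and the 95% intervals left room for changes of over 2-fold in Ccnd1, Ccnd2, Ccnd3, Cdk6 and Cdkn2a. Cdk6 was the gene whose level stood out. It was at 285, 229 and 270 CPM in ALKKO against 140 to 141 CPM in the Ctrl mice and 80.1 to 143 in the KO mice. Each ALKKO mouse was thus above all 6 mice without the transgene, and the lowest tumor, at 226 CPM, lay just below the lowest ALKKO mouse. The log2 fold change against Ctrl was 0.89 (SE 0.37, unadjusted p = 0.0346), and the edgeR adjusted p was 0.9998 over all genes. With the ALKKO and Ctrl libraries fitted alone, the adjusted p was 0.0102, and no other alternative brought it under 0.05. Over the 20 alternatives it ran from 0.0102 to 1 with log2 fold changes of 0.82 to 0.98. With the ALKKO and KO libraries fitted alone, Cdk6 had an edgeR adjusted p of 0.9942 (log2 fold change 1.13).

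Cdkn1b was the other gene whose ALKKO and Ctrl mice did not overlap, where 17.5% of all genes did not. It was at 252, 269 and 244 CPM in ALKKO against 299 to 355 CPM in Ctrl (log2 fold change -0.38, SE 0.17, unadjusted p = 0.0482, edgeR adjusted p = 0.9998). Ccnd2 was at 107, 153 and 125 CPM in ALKKO, overlapping the 124 to 169 CPM of Ctrl, and its log2 fold change was -0.21 (95% interval -1.26 to 0.84). Cdk4 was at 206 to 252 CPM in ALKKO (log2 fold change -0.04, 95% interval -0.39 to 0.31), an interval that does not reach the 0.99 of the lymphomas. Cdkn2a was at 0.786, 1.02 and 0.383 CPM in ALKKO, from 13, 17 and 6 reads.

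Deletion of Dnmt1 without the transgene gave no call either. In KO against Ctrl, 0 of the 10 genes were called, where 0.0187% of all genes were, 0 had an unadjusted p under 0.05, against 5.52% of all genes, and DESeq2 called 0. The KO mean was set by 1 mouse for several genes. Ccnd1 was at 22.3, 159 and 30.4 CPM in KO mice 1, 2 and 3, Ccnd2 at 175, 431 and 112 CPM, and Cdkn2a at 0.794, 6.87 and 0.807 CPM. In each case KO mouse 2 stood above the other KO mice and above all Ctrl mice. For all other members it was the lowest of the Ctrl and KO mice: Ccnd3 (382 CPM), Cdk4 (173), Cdk6 (80.1), Cdkn1b (204), Cdkn2c (55.9), Cdkn2d (71.1) and Rb1 (107). This is the female mouse with the high B-cell markers, 2158 CPM of macrophage markers against 401 to 617 in the other Ctrl and KO mice, and low T-lineage and thymic epithelial markers, whose part in these levels was not tested. Without it, the log2 fold changes of Ccnd1, Ccnd2 and Cdkn2a in KO against Ctrl were -0.01, -0.05 and 0.04 in place of 1.403, 0.69 and 1.83.

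**Figure D4:**
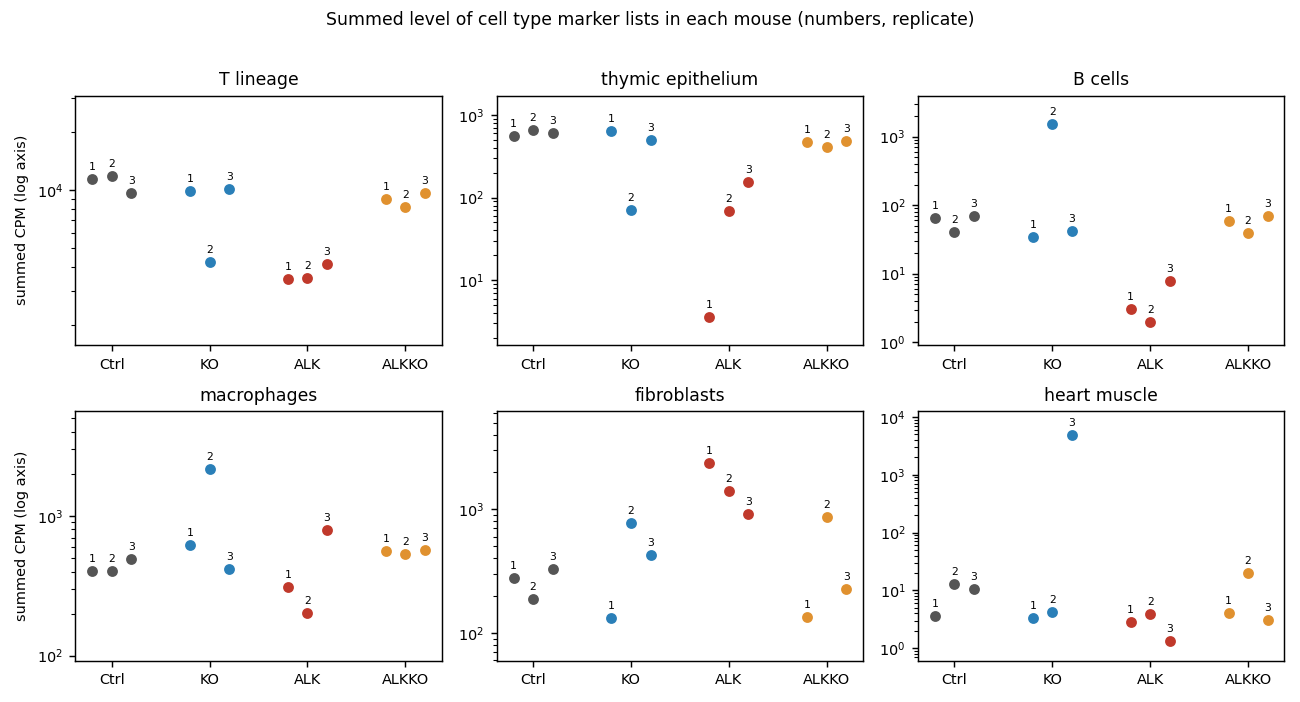
Summed level (CPM, log axis) of 6 lists of cell type markers in each mouse, with the replicate number above each point. KO mouse 2 stands apart for B-cell (1528 CPM) and macrophage markers, KO mouse 3 for heart muscle genes (4815 CPM), and the 3 ALK mice for low B-cell and thymic epithelial and high summed fibroblast markers.

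The lymphomas were also set against the other groups of thymocytes, which answers where tumors differ from transgenic cells that lack Dnmt1 and from deleted cells alone. These comparisons share the ALK mice with the comparison above. In ALK against ALKKO, 4 genes were called (Cdk4, Cdkn2a and Cdkn2c higher, Ccnd2 lower), where 19.6% of all genes were (7.03% higher, 12.6% lower). Cdkn1b and Cdkn2d also fell, by less than 2-fold, so that 6 genes had an adjusted p under 0.05, as did 28.1% of all genes. The log2 fold changes were 1.03 (SE 0.16) for Cdk4, 3.83 (SE 1.12) for Cdkn2a, 1.01 (SE 0.33) for Cdkn2c and -3.91 (SE 0.54) for Ccnd2, with edgeR adjusted p-values of 0.00187, 0.0286, 0.0420 and 0.00114. The ranges of ALK and ALKKO overlapped for Cdkn2a (ALK mouse 1 at 1.01 CPM and ALKKO mouse 2 at 1.02 CPM). Cdk6 did not pass the test here (log2 fold change 0.75, SE 0.37, edgeR adjusted p = 0.151), and without ALK mouse 3 it did (1.05, adjusted p = 0.0297, in a range of 0.0297 to 0.764 over the alternatives). The call of Ccnd2 held under all 20 alternatives. That of Cdk4 went below 2-fold without ALK mouse 2 (0.88) and without ALKKO mouse 1 or 2 (0.98 and 0.96), that of Cdkn2a was lost without ALK mouse 2 or 3 or any 1 ALKKO mouse (adjusted p 0.0562 to 0.0997), and that of Cdkn2c under 18 of 20 alternatives (log2 fold changes of 0.63 to 1.04).

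In ALK against KO, 4 genes were called (Cdk4, Cdk6 and Cdkn2c higher, Ccnd2 lower), where 23.6% of all genes were (7.94% higher, 15.7% lower). The log2 fold changes were 1.21 (SE 0.16), 1.87 (SE 0.38), 1.25 (SE 0.33) and -4.81 (SE 0.56), with edgeR adjusted p-values of 0.000795, 0.00505, 0.0161 and 0.000481. Cdkn1b (log2 fold change -0.80, edgeR adjusted p = 0.00634) and Rb1 (-0.61, adjusted p = 0.0304) also fell, by less than 2-fold. Over 20 alternatives, the adjusted p rose above 0.05 in 1 for Cdkn1b and in 7 for Rb1. With only the ALK and KO groups fitted, the calls of Cdk6 and Cdkn2c were lost (adjusted p 0.0737 and 0.133), and that of Cdkn2c also without ALK mouse 2 (0.0608). Without KO mouse 2, Cdkn2c fell below 2-fold (log2 fold change 0.97), and Cdkn1b (-1.01) and Cdkn2a (3.66) were called as well. In ALKKO against KO, 0 of the 10 genes were called, where 0.00623% of all genes were. Of the 10, 2 had an unadjusted p under 0.05, against 2.69% of all genes, Cdk6 (log2 fold change 1.13, SE 0.37, unadjusted p = 0.0116) and Cdkn2d (0.54, SE 0.19, unadjusted p = 0.0173), and DESeq2 called 0. Among the KO mice, both genes were lowest in KO mouse 2 (80.1 and 71.1 CPM). Without that mouse, their log2 fold changes were 0.91 and 0.33.

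The transgene contrast differed between mice with and without Dnmt1 for 3 genes past both thresholds (5 by adjusted p alone, 10.3% of all genes), where 8.93% of all genes did (5.62% higher, 3.31% lower). This test sets ALKKO minus KO against ALK minus Ctrl, so the lymphoma enters on 1 side alone. The difference was 3.22 (SE 0.69, edgeR adjusted p = 0.0200) for Ccnd2, 1.21 (SE 0.27, adjusted p = 0.0219) for Cdkn2d and -5.65 (SE 1.53, adjusted p = 0.0428) for Cdkn2a, on the log2 scale. The call of Cdkn2a was lost in 14 of 18 alternatives, with a difference of -3.83 (adjusted p = 0.0793) without KO mouse 2, that of Cdkn2d in 5 of 19, among them leaving out Ctrl mouse 1 or 2 or ALKKO mouse 1 or 3 (adjusted p 0.0518 to 0.0600), and that of Ccnd2 in 2 of 19, without Ctrl mouse 1 or 3 (0.0513 each). Cdk6, at -0.51 (SE 0.52, adjusted p = 0.562), did not pass, with a 95% interval of -1.65 to 0.63.

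Beyond the 10 genes, lists of other cell cycle genes, picked with earlier results of these data known, were counted in ALK against Ctrl. The list labelled G1/S cyclins and kinases was not limited to G1/S genes and also held Cdk1, Ccnb1 and Ccnb2. Of its 8 tested genes, 1 rose, where 14.8% of all genes did, and 0 were called. The gene that rose was Cdc25a, a phosphatase that activates such kinases (log2 fold change 0.63, edgeR adjusted p = 0.0266). Cdk2 did not pass the test. Its levels in ALK lay below those of all Ctrl mice (114 to 128 against 139 to 182 CPM), where the groups did not overlap for 46.3% of all genes. Ccna1 was not tested at its low counts. Among the other CDK inhibitors, Cdkn1a, which encodes p21, was at 26.6 to 44.3 CPM in the Ctrl mice and fell to between 9.41 and 18.3 in ALK (log2 fold change -1.38, SE 0.47, edgeR adjusted p = 0.0478), and Cdkn1c and Cdkn2b did not pass, at 0.16 and 0.24.

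Of 12 pocket protein and E2F or DP genes, 1 was called higher and 2 lower. E2f3, an activating E2F, was at 74.0 to 111 CPM in ALK and 39.5 to 47.0 in Ctrl (log2 fold change 1.05, SE 0.17, edgeR adjusted p = 0.00235). E2f2 was at 263 to 302 CPM in ALK and 691 to 757 in Ctrl (-1.36, SE 0.31, adjusted p = 0.00912), and Rbl2, which encodes the Rb relative p130, at 66.4 to 96.6 and 149 to 167 (-1.04, SE 0.17, adjusted p = 0.00197). These 3 of 12 stand beside the 20.4% of all genes called in this comparison (8.41% higher, 12% lower).

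Of 14 tested E2F target genes of DNA synthesis, 4 rose, where 14.8% of all genes did, and 0 fell, 1 of them, Tk1, by over 2-fold (63.4 to 196 CPM in ALK, 48.6 to 66.5 in Ctrl, log2 fold change 1.04, SE 0.35, edgeR adjusted p = 0.0442). Their median log2 fold change was 0.60, beside 0.05 over all genes, and 13 of 14 were above 0. For 1 of the 14 all ALK mice were above all Ctrl mice, where the groups did not overlap for 46.3% of all genes. Mcm2, a subunit of the replicative helicase, was at 443, 367 and 184 CPM in ALK mice 1, 2 and 3 against 195 to 240 in Ctrl, so ALK mouse 3 lay below every Ctrl mouse, as it did for Pcna (153 against 192 to 265 CPM) and Rrm1 (246 against 255 to 330 CPM). Cdt1 was listed at 0 in all 12 libraries, and whether it was silent or its reads were left out of the count was not tested. Of 7 genes of kinase activation and turnover, 4 rose and 0 were called, Cdk7, Ccnh and Mnat1, the 3 subunits of the CDK-activating kinase, and Cks1b, with log2 fold changes of 0.48, 0.73, 0.74 and 0.79. Of 5 proliferation markers 0 passed the test. Mki67 was at 589 to 1575 CPM in ALK and 747 to 885 in Ctrl (0.56, SE 0.36, adjusted p = 0.260), and 0 of the 5 had an unadjusted p under 0.05 or were called with a 2-fold threshold. In ALKKO against Ctrl, 0 genes of these lists passed the test or had an unadjusted p under 0.05, and the list medians lay between -0.23 and 0.04.

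**Figure D5:**
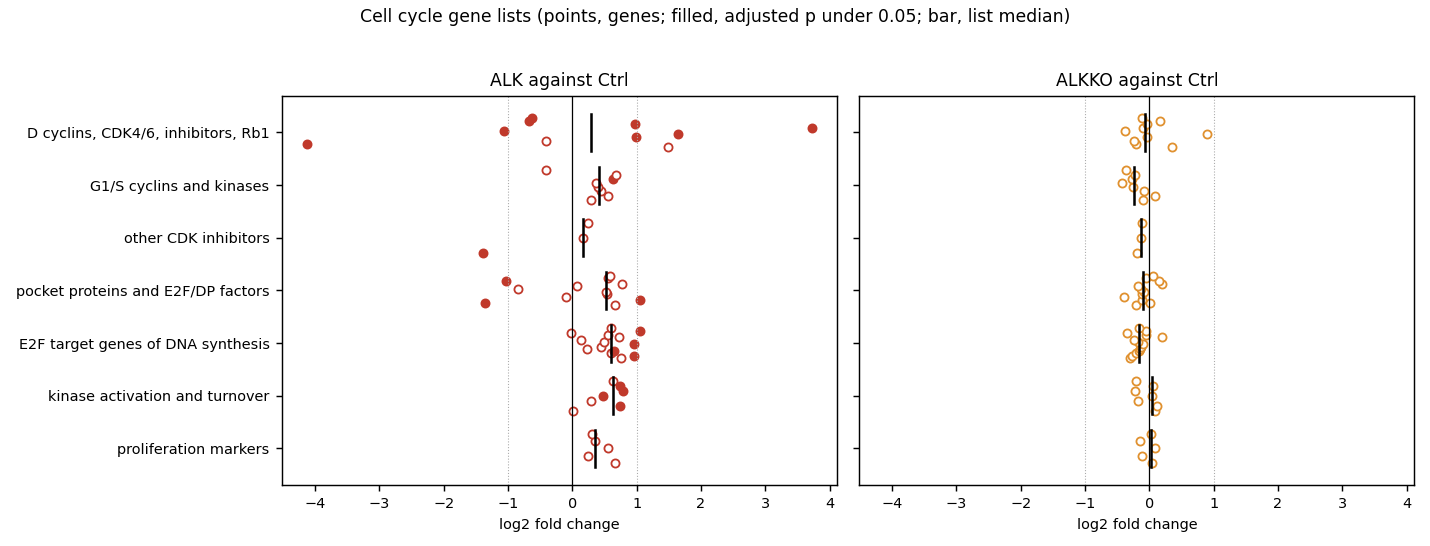
Log2 fold change of each tested gene of 7 lists in ALK and in ALKKO against Ctrl, with list medians as bars and genes with an adjusted p under 0.05 filled. In ALK the medians of the lists other than the 10 genes lie between 0.16 and 0.63 and filled points lie on both sides of 0. In ALKKO no point is filled.

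The genes most like each cyclin and kinase, by Pearson r of log2 CPM over the 12 libraries, are given as a description of libraries that share group differences. They were Ccdc50 (r = 0.96) and Coprs (0.96) for Ccnd1, Crebl2 and Cd52 (0.99 each) for Ccnd2, Hhipl2 (0.93) and Lancl1 (0.90) for Ccnd3, Ruvbl1 (0.99) and E2f3 (0.98) for Cdk4, and Mtrex (0.96) and Tmem18 (0.94) for Cdk6. Within the 10 genes, Ccnd2 ran opposite to Cdk4 (-0.97) and Cdkn2c (-0.90). Cdkn1b ran with Rb1 (0.88), Cdk6 with Cdkn2c (0.87) and Ccnd1 with Cdkn2a (0.87). Ccnd1 and Cdkn2a were both high in KO mouse 2 (159 and 6.87 CPM), the mouse with the high B-cell markers, whose part in this r was not tested.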

How the data were processed

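RNA of 12 mice, 3 in each of the groups Ctrl, KO, ALK and ALKKO, was analysed, with groups, replicate numbers and ages from the sample labels. The authors trimmed 50 nt single-end reads, aligned them with STAR (mm10) and deposited, per gene, the raw count made by HTSeq. The submitters' processing notes also name Picard 2.19.2. Other versions, the annotation release and the strand setting are not given in the sources used here. Multi-aligned and ambiguous reads were counted for no gene. Of 50600 gene IDs, 50376 were matched to GENCODE M21 (GRCm38).

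The test was edgeR 4.0.16 (R 4.3.3; TMM, filterByExpr, 1 term per group over all 12 libraries, robust glmQLFit, glmQLFTest) with Benjamini-Hochberg adjustment over 16052 genes. A call needed both an adjusted p under 0.05 and more than 2-fold change. SEs were derived from the F statistic, and CPM are TMM-normalized. Whether replicates came from separate litters is not stated. Levels per kb used the union of exons. DESeq2 1.42.0 was an alternative, with those named in the closing section. The edgeR test was tested on simulated data.

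The 10 genes and all lists were chosen with earlier results of these data known. Named were the 10 genes, Dnmt1, Alk, Myc, Notch1, for each list the called or unmeasured genes, up to 4 a list, and for each cyclin and kinase the 2 genes most like it. Cdc25a, Cdk2, Cdkn1c, Cdkn2b, Mcm2, Pcna, Rrm1, Mki67, Cdk7, Ccnh, Mnat1 and Cks1b were named after their values were seen. So were the markers Cd3d, Cd3e, Cd3g, Ptcra, Dcn and Pdgfra. The authors' own lists of changed genes were not used.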

Additional observations from a re-analysis of the deposited data

Results flagged for a closer look

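The effect of NPM-ALK differed between mice with and without Dnmt1 for 5 of the 10 genes (edgeR adjusted p under 0.05, where 10.3% of all genes tested passed), measured as (ALKKO minus KO) minus (ALK minus Ctrl) on the log2 scale. The difference was 3.22 for Ccnd2, whose log2 fold change was -4.12 in ALK against Ctrl and -0.90 in ALKKO against KO. Without KO mouse 2, the log2 fold change of Ccnd2 in ALKKO against KO was -0.16, and the difference was 3.99. With all mice, the difference was 1.21 for Cdkn2d (-0.68 and 0.54) and 0.96 for Cdkn1b (-1.07 and -0.11, adjusted p = 0.0334). It was -0.81 for Cdk4 (0.99 and 0.18, adjusted p = 0.0477) and -5.65 for Cdkn2a (3.73 and -1.93). The value of Cdkn2a rested in part on KO mouse 2 and was -3.83 without it, with an adjusted p of 0.0793. Over the alternatives the adjusted p rose above 0.05 in 2 of 19 for Ccnd2 (0.0513 without Ctrl mouse 1 or 3), 5 of 19 for Cdkn2d, 9 of 19 for Cdkn1b, 14 of 19 for Cdk4 and 14 of 18 for Cdkn2a. The transgene was measured in lymphomas on 1 side and in thymi on the other, so the Dnmt1 genotype and the tissue cannot be told apart.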

How the results depend on the processing

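Of 1383 values of the 10 genes in 7 comparisons under alternatives, 1304 stayed on their side of the call (adjusted p and fold together), 65 fell below it, 14 rose above it and 0 called values changed sign. Most of the 1383 belonged to results that were not called and so could not fall below it. The 65 came from the called results alone, so the pooled count overstates how stable the calls were. Most were lost for Cdkn2c in ALK against ALKKO (18 of 20) and Cdkn2a in the difference of the transgene effects (14 of 18). In ALK against Ctrl, 4 genes were called, 8 with the adjusted p alone and 3 to 5 with 1 library left out. In ALK against ALKKO, 4 were called, 2 with no low-count filter, 1 with at least 10 counts in every library (Cdkn2a was then not tested), 2 with only the groups compared and 1 to 4 with 1 library left out. In ALK against KO, 4 were called, 2 with only the groups compared. For the difference of the transgene effects, 3 were called, 5 with the adjusted p alone, 0 to 4 with 1 library left out, the 0 being without Ctrl mouse 1, and 1 without KO mice 2 and 3, an alternative chosen after seeing the data. Without Ctrl mouse 2 or 3 or ALKKO mouse 1 or 3 it was also 1. In the other comparisons 0 were called under each alternative. The cause of these changes was not tested.

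The counts showed no clear pairing of the mice by replicate number, though they cannot show that the mice were unpaired. Of 18 same-numbered pairs, 5 had a correlation of deviations above 0.1 (-0.106 to 0.426), and the best match carried the same number in 13 of 36 cases. With the number as a replicate block, 2 genes were called in ALK against ALKKO in place of 4, and Cdkn2a in ALK against Ctrl had an adjusted p of 0.061, Cdkn2c 0.0843 and Rb1 0.0546.

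With the longest transcript in place of the exon union, 23 of 48 group means of shares and ratios moved by over 1 SD. The Ccnd3 share in Ctrl was then 87.2% in place of 81.0%, and the ratio of Cdkn1b to both kinases 0.593 in place of 0.911 in Ctrl and 0.138 in place of 0.209 in ALK. With 6 to 215 reads, Cdkn2a was the gene most limited by depth.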
